A study of Mus musculus with 18 samples.

Results

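The E2F family of transcription factors and their DP partners were followed in mouse mammary tumors with and without inhibition of the Rb family. The members were every row of the count file named E2f1, E2f2, E2f3, E2f4, E2f5, E2f6, E2f7, E2f8, Tfdp1 or Tfdp2, which gave 10 of the 55450 genes in the file. All 10 passed the filter on low counts, which kept 19186 genes. RNA was sequenced from 18 female mice of the C57Bl/6 strain, with 1 library per mouse. The B1/P/Rbf tumors (n = 5) carried Brca1fl/fl/Trp53fl/fl/TgK18GT121Tg/+, the B1/P tumors (n = 5) carried Brca1fl/fl/Trp53fl/fl, and the P/Rbf tumors (n = 5) carried Trp53fl/fl/TgK18GT121Tg/+. The 3 normal mammary glands were wild type. The floxed alleles and the transgene were switched by an adenovirus expressing Cre from a CMV promoter, injected into the ducts of adult females, so Trp53 loss was shared by all 15 tumors. The transgene puts T121, an N-terminal piece of the large T antigen of SV40, behind the promoter of keratin 18, so that it is expressed in epithelial cells. No group had T121 alone and none had Trp53 loss alone. By genotype, B1/P/Rbf and B1/P tumors differ by T121. P/Rbf and B1/P tumors differ by T121 and by Brca1, which cannot be told apart in that comparison. The study classed B1/P tumors as basal-like and negative for hormone receptors, and both groups with T121 as luminal and positive for them. Subtype thus changes with T121 between these groups, and their parts cannot be told apart. Animals were identified by the mouse number in the sample titles.

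Cells restrain division through the pocket proteins pRb, p107 and p130, which hold E2F factors and silence E2F target promoters. T121 binds all of these pocket proteins. E2F1, E2F2 and E2F3 are the activators, which switch on genes of DNA replication once released from pRb. E2F4 and E2F5 act mainly as repressors together with p107 and p130, and E2F6 represses without a pocket protein, as part of a Polycomb complex that keeps germline genes silent. E2F7 and E2F8 are atypical members that bind DNA without a DP partner and repress E2F targets late in S phase, and several E2F genes are themselves E2F targets. DP1 and DP2, encoded by Tfdp1 and Tfdp2, pair with E2F1 to E2F6 to bind DNA.

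The comparison asked for here was that of activator and repressor E2Fs in tumors with T121 and in tumors without it. Over all T121 tumors against B1/P tumors 2 of 10 members were called, the atypical repressors E2f7 and E2f8, both higher. Of all genes 23.2% were called there, 9.31% higher. In P/Rbf against B1/P tumors 4 of 10 were called, all higher, with E2f2 and E2f5 added to E2f7 and E2f8. Of all genes 19.2% were called there, 8.43% higher. No member was called lower in T121 tumors. In B1/P/Rbf against B1/P tumors, whose genotypes differ by T121 alone, 0 of 10 members were called by edgeR (E2f7 adjusted p = 0.0669, E2f8 0.156), where 16.7% of all genes were. DESeq2 called E2f1, E2f7 and Tfdp2 there (adjusted p = 0.0385, 0.0444 and 0.0384), and 23.0% of all genes. The comparison over all T121 tumors also includes the intact Brca1 of P/Rbf tumors. Of the edgeR calls, that of E2f7 over all T121 tumors was kept on leaving out each tumor in turn, whereas E2f8 there was called in 7 of 15 such fits. The P/Rbf calls of E2f2, E2f5 and E2f8 each held in 5 of 10 such fits. They ended with a term for 2 sets of mouse numbers, as did that of E2f7 in P/Rbf alone. These sets, described below, are not a known batch. With that term the P/Rbf tumors are set against only the 2 B1/P tumors of their own set. The balance between the activators and E2f4 to E2f6 overlapped between the 3 tumor groups, and all normal glands had a lower one. Levels are given as CPM, the expected counts of a gene relative to its library's total after TMM scaling. A gene was called where edgeR's quasi-likelihood test gave an adjusted p (Benjamini-Hochberg, over all 19186 genes) no greater than 0.05, and fold changes are on the log2 scale with their SE. The T121 comparisons share the same 5 B1/P tumors, and the comparisons with gland share the same 3 glands.

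Total counts ran from 27661173 to 37794889 per library, with a median of 33802255. The lowest expected count of any member was 53, for E2f7 in a normal gland, and the highest was 10257, for Tfdp1. T121 itself was not analysed here because the count file holds mouse genes. Brca1 ran from 21.1 to 45.0 CPM in B1/P/Rbf tumors (median 27.8) and from 8.13 to 27.9 CPM in B1/P tumors (median 10.9). It ran from 44.9 to 116 CPM in P/Rbf tumors, which keep the gene, while wild-type gland had 4.61 to 5.99 CPM. By RT-qPCR in the study's supplement, loss of Brca1 expression was partial in B1/P/Rbf tumor 208863. Trp53 ran from 6.75 to 24.3 CPM in the tumors of all genotypes and from 54.4 to 71.8 CPM in gland. These are counts over whole genes, including exons outside the floxed part. Krt18, whose promoter drives T121, was at 614 to 3820 CPM in T121 tumors and at 204 to 542 CPM in B1/P tumors. Some fits below divide the libraries by mouse number into a lower set, 208855 to 246361, with every B1/P/Rbf tumor and 3 from B1/P mice, and a higher set with the remaining 2 of B1/P, every P/Rbf tumor and the glands. This division was taken over from an earlier analysis of these data. The labels name no such sets, wider gaps between neighboring numbers lie within both of them, and all 18 libraries were pooled for sequencing, so it is not a known batch. With the set in the fit, or within the higher set, P/Rbf tumors are compared with only 2 B1/P tumors. A call lost there may reflect this smaller number, which was not tested.

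Marker genes of several cell types differed between the groups. The 5 epithelial markers Epcam, Cdh1, Krt8, Krt18 and Krt19 summed to 2830 to 12300 CPM in T121 tumors and to 683 to 3070 CPM in B1/P tumors, and 4 of the 5 were called higher in T121 tumors. The 5 fibroblast markers summed to 541 to 3020 CPM in T121 tumors and to 1540 to 7250 CPM in B1/P tumors, with 1 of 5 called lower. Skeletal muscle markers reached 581 CPM in B1/P tumor 248662 and stayed at or below 22.5 CPM in every other tumor. Normal glands held 9850 to 14000 CPM of adipocyte markers, 21800 to 42800 CPM of muscle markers and 442 to 627 CPM of lymphocyte markers, against at most 162, 581 and 118 CPM in any tumor. The 5 macrophage markers summed to 157 to 513 CPM in B1/P/Rbf, 253 to 1080 CPM in B1/P and 192 to 430 CPM in P/Rbf tumors and to 155 to 224 CPM in gland. None of them was called between T121 and B1/P tumors, and against gland all 5 were called higher in B1/P tumors, 2 in B1/P/Rbf and 1 in P/Rbf. The 5 endothelial markers summed to 68.8 to 293 CPM in tumors and to 339 to 378 CPM in gland, with 0 called by edgeR between T121 and B1/P tumors, and 4 called lower than in gland in P/Rbf tumors and 3 in each of the other groups. None of these markers was at 0 throughout a group. Their part in the differences below was not tested, and in bulk tissue fewer cells of a type and less RNA per cell cannot be told apart.

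Promoter sequence is shown for the members whose RNA differed most between the tumors, E2f7, E2f8 and E2f2, and for E2f3, an activator that did not follow them. The windows are from RefSeq on GRCm38.p6, hold 300 bases from 250 before the annotated start site to 50 from it onwards, and are written 5′ to 3′ on the strand of the gene. Capitals mark an E2F motif (any of TTTCGCGC, TTTGGCGC, TTTCCCGC or TTTGCCGC, read on both strands) or the cell cycle homology region motif TTTGAA, also read on both strands, which is found in many genes of late cell cycle. No match overlapped another.

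E2f7 (chr10:110745189-110745488, plus strand): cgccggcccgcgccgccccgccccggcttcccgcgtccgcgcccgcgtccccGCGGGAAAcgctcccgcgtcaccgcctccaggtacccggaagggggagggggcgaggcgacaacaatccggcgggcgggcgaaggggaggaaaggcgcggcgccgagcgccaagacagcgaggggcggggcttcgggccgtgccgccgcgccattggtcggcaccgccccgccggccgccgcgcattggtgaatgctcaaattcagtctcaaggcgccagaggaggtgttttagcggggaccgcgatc

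E2f8 (chr7:48881547-48881846, minus strand): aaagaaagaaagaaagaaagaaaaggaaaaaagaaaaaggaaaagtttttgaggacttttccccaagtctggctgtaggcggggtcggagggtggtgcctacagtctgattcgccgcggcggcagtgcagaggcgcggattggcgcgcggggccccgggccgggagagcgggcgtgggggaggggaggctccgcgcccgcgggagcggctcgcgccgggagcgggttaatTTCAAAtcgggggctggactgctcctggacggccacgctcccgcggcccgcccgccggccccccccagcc

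E2f2 (chr4:136172024-136172323, plus strand): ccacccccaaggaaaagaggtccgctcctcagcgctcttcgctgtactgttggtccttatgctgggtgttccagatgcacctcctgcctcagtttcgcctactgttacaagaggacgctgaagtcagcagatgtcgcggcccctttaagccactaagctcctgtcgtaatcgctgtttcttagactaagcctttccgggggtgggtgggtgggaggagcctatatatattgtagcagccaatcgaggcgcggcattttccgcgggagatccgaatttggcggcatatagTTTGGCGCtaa

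E2f3 (chr13:29986014-29986313, minus strand): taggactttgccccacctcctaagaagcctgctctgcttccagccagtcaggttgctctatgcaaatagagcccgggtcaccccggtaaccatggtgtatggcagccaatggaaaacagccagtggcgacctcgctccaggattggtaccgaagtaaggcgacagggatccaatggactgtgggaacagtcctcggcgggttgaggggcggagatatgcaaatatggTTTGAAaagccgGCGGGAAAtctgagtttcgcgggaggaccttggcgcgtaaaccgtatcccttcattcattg

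The E2f7 window held GCGGGAAA, the reverse complement of TTTCCCGC, beginning 198 bases before the start site. The E2f8 window held no E2F motif in these exact letters and held TTCAAA, the reverse complement of TTTGAA, 20 bases before the start site. In E2f2 the motif TTTGGCGC began 39 bases after the RefSeq start site, which lies 120 bases from the nearest start in GENCODE. A second E2f2 window, from 136180532 to 136180831, lies 1 base from a GENCODE start and held TTTGAA but no E2F motif. In the first E2f3 window TTTGAA and GCGGGAAA began 23 and 11 bases before the start site. A second E2f3 window, from 29984342 to 29984641, starts at a GENCODE start site and held neither motif. Of the 8 members with at least 1 window, 4 held an E2F motif: E2f2, E2f3, E2f7 and Tfdp1. Of all 27025 genes with such windows, 2.6% held an E2F motif and 20.2% held TTTGAA. Among the S phase targets described below 13 of 24 genes held an E2F motif, and among the G2/M genes 8 of 10 held TTTGAA. The RefSeq start site of the E2f1 window lies 294 bases from the nearest start in GENCODE, and the window held neither motif. That window ends at 154569676, whereas the gene, on the minus strand, begins at 154569892 in GENCODE. Bases before that outermost start were therefore not searched. These matches describe the windows, not binding.

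**Figure D1:**
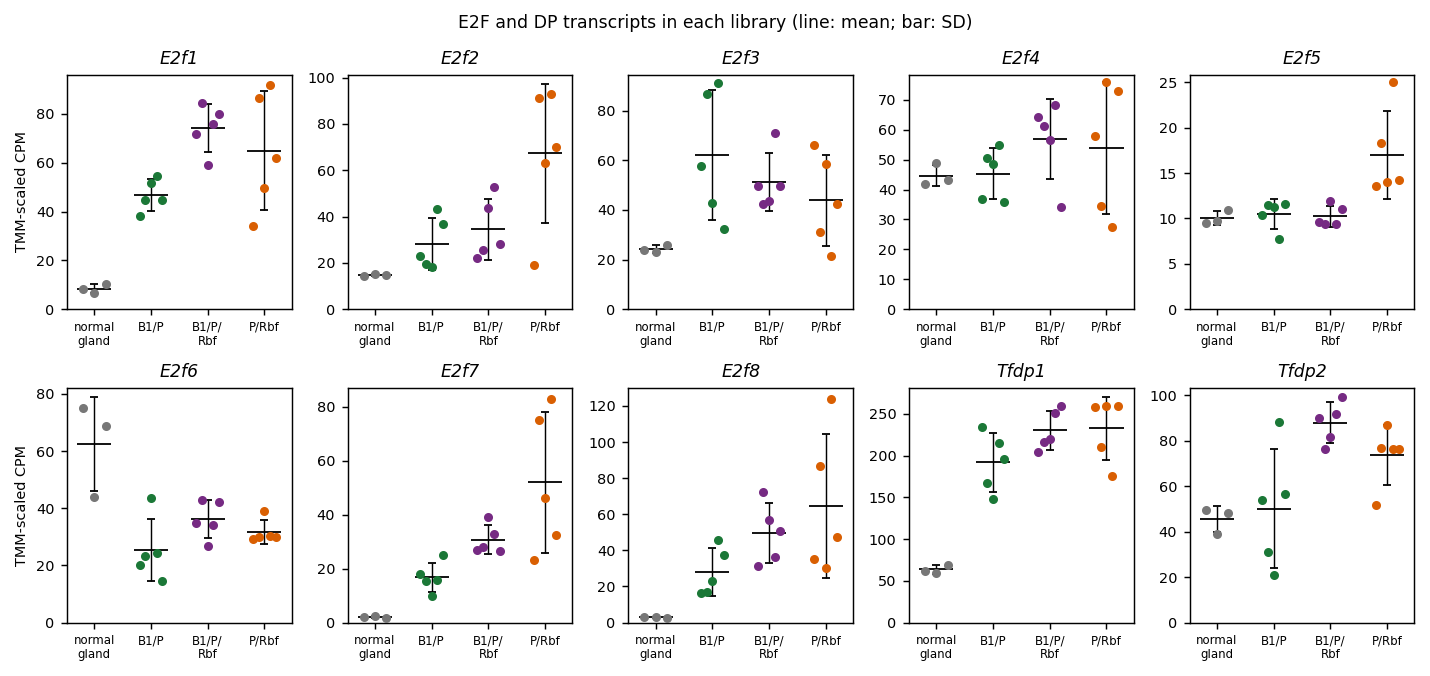
Each panel plots 1 gene, with TMM-scaled CPM on a linear axis from 0 and 1 point per library in the 4 groups. Lines are means and bars are SDs (n = 5 per tumor group, n = 3 glands). E2f7 and E2f8 sit below 3 CPM in gland and between 10.0 and 124 CPM in tumors, and the P/Rbf points are the most spread out for E2f2, E2f7 and E2f8.

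E2f1, the activator most closely linked to S phase entry and also to cell death, was measured at 71.6, 84.6, 58.9, 76.1 and 79.9 CPM in B1/P/Rbf tumors. The B1/P tumors had 38.3, 44.6, 51.6, 54.7 and 44.8 CPM. The P/Rbf tumors had 34.3, 86.6, 49.7, 91.9 and 62.0 CPM, and the glands had 8.48, 6.54 and 10.2 CPM. Every B1/P/Rbf tumor was above every B1/P tumor, whereas P/Rbf tumors spanned the whole range, holding both the lowest and the highest tumor. The B1/P/Rbf tumors exceeded B1/P tumors by 0.67 ± 0.23 (adjusted p = 0.0593, edgeR). That missed the threshold, although the exact two-sided permutation p of 0.00794 was the smallest that 5 against 5 allows. DESeq2 and the edgeR fit of only the groups compared called it (adjusted p = 0.0385 and 0.0278). For P/Rbf tumors the difference was 0.47 ± 0.23 (adjusted p = 0.16, edgeR). Over both T121 groups it was 0.57 ± 0.21 (adjusted p = 0.0549, edgeR), and DESeq2 called it, with an adjusted p of 0.0342.

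E2f2, an activator that accumulates in dividing cells, reached 19.1, 91.1, 63.1, 93.0 and 70.1 CPM in P/Rbf tumors. In B1/P tumors it was at 22.9, 19.6, 18.2, 43.2 and 36.9 CPM. The B1/P/Rbf tumors had 22.2, 25.5, 43.5, 52.8 and 28.2 CPM. Glands had 14.3 to 15.3 CPM. Thus 4 of the 5 P/Rbf tumors were above every other tumor, and the fifth, 287842, was near the bottom. E2f2 was higher in P/Rbf than in B1/P tumors by 1.26 ± 0.37 (adjusted p = 0.026, edgeR). The B1/P tumors 255232 and 248662 had the highest E2f2 of their group. They are the B1/P tumors placed in the higher set, and against those 2 alone the difference was 0.75 (adjusted p = 0.353, edgeR). The call was lost on leaving out B1/P tumor 225068, 225070 or 246361 or P/Rbf tumor 287845 or 287822 (1.11 to 1.19, adjusted p from 0.0511 to 0.0622), and with a term for the 2 sets in the fit (the set term, 0.75, 0.317), limma-voom (1.1, 0.061) or only the groups compared (1.26, 0.0787). In B1/P/Rbf against B1/P tumors the difference was 0.29 ± 0.37 (adjusted p = 0.628, edgeR).

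E2f3 is the activator whose locus makes the longer E2F3a and the shorter E2F3b from separate start sites. In T121 against B1/P tumors it had negative differences, where E2f1 and E2f2 had positive ones. Against gland E2f3 was positive too, at 1.08 in B1/P/Rbf, 1.35 in B1/P and 0.85 in P/Rbf tumors. The gene-level counts add both forms. B1/P tumors had 57.8, 86.8, 42.7, 91.1 and 32.4 CPM of E2f3. The B1/P/Rbf tumors had 49.5, 42.5, 43.6, 71.2 and 49.8 CPM. In P/Rbf tumors they were 66.0, 31.1, 58.4, 21.5 and 42.3 CPM. Glands had 23.2 to 26.0 CPM. The tumor groups overlapped throughout and no tumor comparison passed the threshold. The T121 tumors differed from B1/P tumors by -0.39 ± 0.27 (adjusted p = 0.301, edgeR).

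Among the repressors that work with pocket proteins, E2f4 is the most abundant E2F in many tissues. In B1/P/Rbf tumors it was measured at 64.1, 61.2, 56.6, 68.1 and 34.0 CPM. B1/P tumors had 36.9, 50.7, 48.4, 54.8 and 35.9 CPM, and P/Rbf tumors, the most varied group, had 57.9, 34.5, 76.0, 27.5 and 72.9 CPM. Glands had 42.0, 48.7 and 43.3 CPM, within the range of every tumor group. E2f4 was not called in any of the 7 comparisons, and its largest difference was 0.35 ± 0.31 (adjusted p = 0.4, edgeR), between B1/P/Rbf tumors and gland.

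E2f5, the other repressor of this class, separated the P/Rbf tumors from all others. The P/Rbf tumors had 13.6, 18.3, 14.0, 25.0 and 14.2 CPM. The B1/P tumors had 10.4, 11.5, 11.3, 7.75 and 11.6 CPM, and the B1/P/Rbf tumors had 9.56, 9.42, 11.9, 9.38 and 11.1 CPM. All 5 P/Rbf tumors were above all 10 other tumors and above the glands, which had 9.46 to 10.9 CPM. E2f5 was higher in P/Rbf than in B1/P tumors by 0.70 ± 0.22 (adjusted p = 0.0346, edgeR). That call was lost on leaving out B1/P tumor 225068, 246361 or 255232 or P/Rbf tumor 287845 or 287822 (0.52 to 0.72, adjusted p from 0.0505 to 0.0954). It was also lost with the set term (0.81, adjusted p = 0.0923), within the higher set (0.81, 0.149), with library size alone (0.0589), with no filter (0.0791) and with only the groups compared (0.134), while DESeq2 and limma-voom called it (0.00298 and 0.0216). B1/P/Rbf tumors differed from P/Rbf tumors by -0.73 ± 0.22, where 54 genes in all passed the threshold and E2f5 did not (adjusted p = 0.126, edgeR), with an exact two-sided permutation p of 0.00794. DESeq2 called it there (adjusted p = 0.00856). Exons of E2f5 overlap the gene 1810022K09Rik on the opposite strand, which ran from 21.3 to 43.7 CPM in P/Rbf tumors and from 18.0 to 30.4 CPM in the other tumors. Whether the reads were counted by strand is not given in the sources used here.

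E2f6, the repressor of the Polycomb complex, was the only member lower in tumors than in gland. Glands had 75.0, 44.0 and 68.6 CPM. Of the tumors, B1/P/Rbf had 34.9, 42.9, 26.9, 34.2 and 42.1 CPM. B1/P tumors had 20.3, 23.4, 43.5, 24.3 and 14.7 CPM and P/Rbf tumors 29.4, 30, 39.0, 30.2 and 29.8 CPM. Every tumor was below every gland. E2f6 fell by 1.31 in B1/P tumors (SE 0.28, adjusted p = 0.00193, edgeR), by 0.79 in B1/P/Rbf tumors (SE 0.28, adjusted p = 0.0367) and by 0.98 in P/Rbf tumors (SE 0.28, adjusted p = 0.0114). The B1/P/Rbf call was lost on leaving out tumor 208855, 208863 or 209490 or gland 330154 or 330156 (adjusted p from 0.0586 to 0.189), and the P/Rbf call on leaving out gland 330154 or 330156 (0.0838 and 0.0595). With scaling by library size alone, E2f6 was called against gland only in B1/P tumors (-0.94, adjusted p = 0.0185, edgeR). T121 tumors differed from B1/P tumors by 0.42 ± 0.22 (adjusted p = 0.173, edgeR). Without B1/P tumor 246361, whose 43.5 CPM was the highest of any tumor, that difference was 0.71 and was called (adjusted p = 0.0178).

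The 5 germline genes listed as silenced by E2F6 summed to 148 CPM in B1/P tumor 248662, to 18.2 CPM in 255232 and to 16.2 CPM in 225068. B1/P tumors 225070 and 246361 had 0.889 and 0.829 CPM, and no T121 tumor exceeded 2.71 CPM. Only Stag3 and Smc1b, both subunits of meiotic cohesin, passed the filter on low counts, and Smc1b passed only through B1/P tumors, being at or below 0.221 CPM in every T121 tumor and 0.164 CPM in gland, so no test of this list is given. Stag3 averaged 34.0 ± 58.4 CPM (SD, n = 5) in B1/P tumors and 0.76 ± 0.701 CPM (SD, n = 10) in T121 tumors. Of the 8 partners listed for the E2F6 complex, Pcgf6 fell by 0.72 (SE 0.19, adjusted p = 0.0122, edgeR) and Yaf2 by 0.55 (SE 0.18, adjusted p = 0.0361) in T121 tumors. Yaf2 had 22.0 ± 4.37 CPM in B1/P tumors, 20.1 ± 4.3 CPM in P/Rbf and 11.2 ± 2.47 CPM in B1/P/Rbf (SD, n = 5 each), and P/Rbf against B1/P was not called (-0.13, adjusted p = 0.699, edgeR). The other 6 were not called, and 2 of 8 lower stand beside 13.9% of all genes. With no filter, or with only the groups compared, 1 of the 8 was called. The uncalled partners include Mga and Rnf2 at -0.24 and -0.11.

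Of the atypical repressors, E2f7 had the lowest adjusted p of all members over the T121 tumors. It was measured at 26.9, 28.1, 39.1, 32.9 and 26.5 CPM in B1/P/Rbf tumors. P/Rbf tumors had 23.3, 74.9, 46.1, 82.9 and 32.4 CPM. The B1/P tumors had 17.9, 15.5, 10.0, 15.7 and 25.0 CPM and the glands 2.15, 2.42 and 1.79 CPM. In total 9 of 10 T121 tumors were above every B1/P tumor, and the exception, 287842, was above 4 of 5. E2f7 was higher in T121 tumors by 1.25 ± 0.29 (adjusted p = 0.00494, edgeR), with an exact two-sided permutation p of 0.002. It was called on leaving out each of the 15 tumors in turn, with a difference from 1.11 to 1.43, and with the set term (1.22, adjusted p = 0.00673). By genotype, the difference was 0.87 ± 0.31 in B1/P/Rbf tumors (adjusted p = 0.0669, edgeR) and 1.63 ± 0.32 in P/Rbf tumors (adjusted p = 0.00309). The first was called by DESeq2 (adjusted p = 0.0444), with only the groups compared (0.0445) and within the lower set (0.048). The P/Rbf difference against only the 2 B1/P tumors of the higher set was 1.35 and was not called (adjusted p = 0.113), nor was it with the set term (1.35, 0.0604). Exons of E2f7 overlap the antisense gene 1700020G17Rik, which was at 0 in every library.

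E2f8 was measured at 31.3, 72.6, 57.0, 36.2 and 50.5 CPM in B1/P/Rbf tumors. P/Rbf tumors had 35.2, 86.9, 30.2, 124 and 47.6 CPM. The B1/P tumors had 16.2, 16.7, 23.2, 45.8 and 37.6 CPM and the glands 2.89, 2.95 and 2.67 CPM. Of the T121 tumors 6 of 10 were above every B1/P tumor, and the B1/P tumors 255232 and 248662 reached into their range. E2f8 was higher in T121 tumors by 1.02 ± 0.35 (adjusted p = 0.0438, edgeR), but 8 of the 15 single tumors, when left out, ended that call (adjusted p up to 0.108). These were 225068, 225070 and 246361 of B1/P, 208857, 208863 and 210906 of B1/P/Rbf, and 287845 and 287822 of P/Rbf. With the set term it was called at 1.02 (adjusted p = 0.0292), and with library size alone or only the groups compared it was not (0.0519 and 0.0654). In P/Rbf tumors E2f8 was higher by 1.21 ± 0.39 (adjusted p = 0.039, edgeR), a call lost without B1/P tumor 225068, 225070 or 246361 or P/Rbf tumor 287845 or 287822 (0.84 to 1.15, adjusted p from 0.0756 to 0.119). That call was also lost with the set term (0.63, adjusted p = 0.414) and within the higher set (0.63, 0.456), and with limma-voom, library size alone or only the groups compared (0.053 to 0.109). In B1/P/Rbf tumors the difference was 0.83 ± 0.39 (adjusted p = 0.156), and within the lower set it was 1.43 and was called (adjusted p = 0.0344). Exons of E2f8 overlap Gm2788 on the opposite strand, at 0.178 to 4.13 CPM in tumors.

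Of the DP partners, Tfdp1 ran from 148 to 235 CPM in B1/P tumors and from 176 to 260 CPM in T121 tumors, where the B1/P/Rbf tumors had at least 205 CPM. Glands had 59.6 to 69.2 CPM. The tumor groups overlapped and T121 tumors differed from B1/P tumors by 0.27 ± 0.14 (adjusted p = 0.181, edgeR). Tfdp1 was the only member with expected counts that were not whole, which RSEM gives where reads match more than 1 place. Tfdp2 was at 90.2, 76.6, 81.8, 92 and 99.4 CPM in B1/P/Rbf tumors. P/Rbf tumors had 51.6, 77.0, 86.9, 76.6 and 76.4 CPM and B1/P tumors had 53.8, 30.9, 20.8, 88.2 and 56.8 CPM. B1/P tumor 255232 stood among the T121 tumors and the other 4 B1/P tumors were below 9 of the 10. T121 tumors differed by 0.68 ± 0.25 (adjusted p = 0.0583, edgeR). DESeq2, limma-voom and the fit with the set term called it (adjusted p = 0.0378, 0.0315 and 0.0262), as did the edgeR fit without tumor 255232 (adjusted p = 0.00757) or without P/Rbf tumor 287842 (0.0407).

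**Figure D2:**
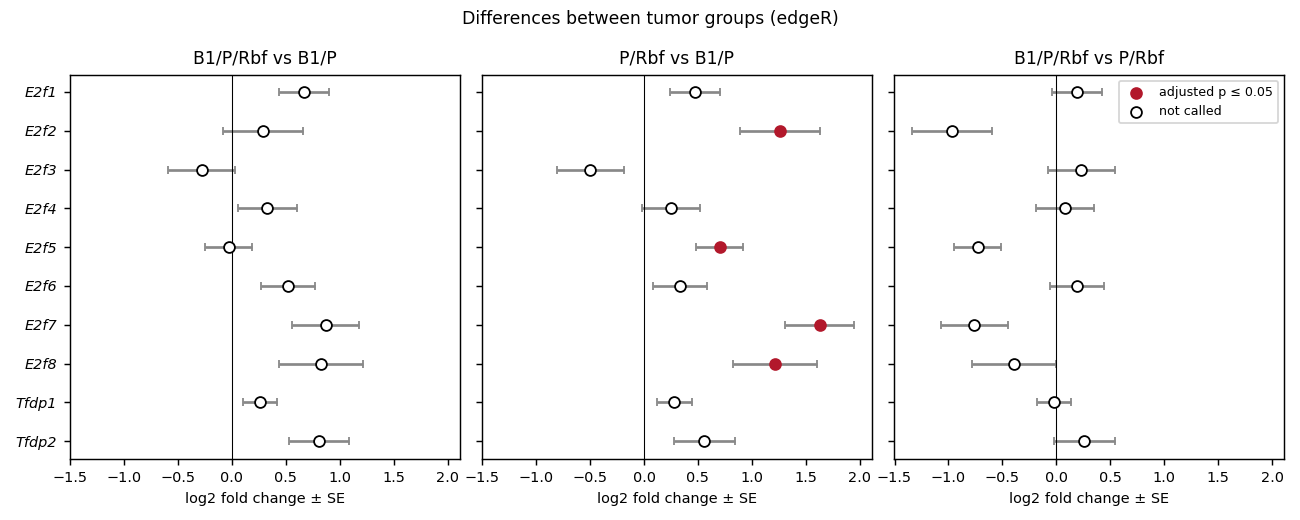
Points are log2 fold changes from edgeR with their SE as bars, for the 10 members (rows) in 3 tumor comparisons (panels). Filled points passed an adjusted p of 0.05. The 4 filled points are E2f2, E2f5, E2f7 and E2f8 in P/Rbf against B1/P tumors.

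Counted over the family, edgeR called 0 of 10 members in B1/P/Rbf against B1/P tumors, where 16.7% of all genes were called. At an unadjusted p under 0.05 the count was 4 members, against 31.3% of genes. DESeq2 called 3 members and 23.0% of genes, and limma-voom called 1 member and 16.0% of genes. E2f1 and E2f7 were the 2 members whose groups did not overlap, against 10.5% of all genes. In P/Rbf against B1/P tumors 4 of 10 members were called, all higher, where 19.2% of all genes were called and 8.43% were called higher. E2f5 was the 1 member without overlap there, against 8.86% of all genes. Over all T121 tumors against B1/P tumors 2 of 10 were called, both higher, against 23.2% of genes called and 9.31% called higher, and 0 of 10 did not overlap, against 4.1%. The median log2 difference of the members was 0.50 there, beside -0.05 over all genes. With the T121 groups set against each other (B1/P/Rbf against P/Rbf, which differ in Brca1), edgeR called 0 of 10 members, against 0.281% of genes. At an unadjusted p under 0.05 the count was 3 (E2f2, E2f5 and E2f7), against 16.1% of genes. DESeq2 called 1 member and 5.33% of genes, limma-voom called 0 members and 0.136% of genes, and E2f5 was the only member without overlap, against 3.02% of genes.

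Against normal gland, 8 of 10 members were called in B1/P/Rbf tumors (7 higher), 6 in B1/P tumors (5 higher) and 7 in P/Rbf tumors (6 higher). The shares of all genes called were 37.0%, 33.8% and 37.7%, with 17.1%, 16.8% and 17.4% called higher. Groups did not overlap for 8, 7 and 8 members, against 50.5%, 41.4% and 46.5% of all genes. E2f8 and E2f7 rose most, E2f8 by 3.30 ± 0.53 in B1/P tumors and 4.51 ± 0.56 in P/Rbf tumors and E2f7 by 2.98 ± 0.42 and 4.61 ± 0.46. E2f1 rose by 2.48 ± 0.30 to 3.14 ± 0.31 and Tfdp1 by 1.6 ± 0.20 to 1.87 ± 0.20. E2f2 rose in both T121 groups, E2f3 rose in both groups with floxed Brca1, Tfdp2 rose in B1/P/Rbf tumors and E2f5 in P/Rbf tumors. With library size alone E2f2 was also called in B1/P tumors (1.29, adjusted p = 0.0301, edgeR). So were E2f3 (1.13, 0.0229) and Tfdp2 (0.98, 0.0306) in P/Rbf tumors. For the B1/P/Rbf group the calls of E2f2, E2f3 and Tfdp2 were lost without any 1 of the 3 glands (adjusted p from 0.0678 to 0.107). E2f2 was also lost without tumor 208863 or 209490 (0.0723 and 0.0853), E2f3 without 209490 (0.0685) and Tfdp2 without 208855, 209490 or 210906 (0.0515 to 0.0611). With no filter on low counts E2f2 and E2f6 were not called in that group (adjusted p = 0.0503 and 0.0699, edgeR), and with the set term E2f3 was not (0.217). In P/Rbf tumors the E2f5 call was lost without tumor 287822 or any 1 gland (0.0598 to 0.0931), and E2f3 was called without 287822 (0.0288). E2f5 was also not called with no filter (0.075), with only the groups compared (0.0527), within the higher set (0.0594) or without 287845 and 287822 (0.144), while DESeq2, limma-voom, library size alone and the set term called it. In B1/P tumors E2f3 was not called within the higher set (0.0724).

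The balance between classes was taken as the mean log2 CPM of E2f1 to E2f3 minus that of E2f4 to E2f6, a description that ignores gene length. It was 0.86 ± 0.25 in B1/P/Rbf, 0.89 ± 0.44 in B1/P and 0.83 ± 0.36 in P/Rbf tumors (SD, n = 5 each) and -1.06 ± 0.05 in gland (SD, n = 3). Tumors ran from 0.25 to 1.46 and overlapped fully between genotypes, and all 3 glands were below all tumors. Taken per kilobase, the same balance was -0.12 ± 0.25, -0.09 ± 0.44 and -0.15 ± 0.35 in the tumor groups in that order and -2.05 ± 0.05 in gland. Dividing by length shifts every sample by the same amount, so the sign in tumors depends on it and the gap between tumors and gland cannot. For the atypical E2Fs minus E2f4 to E2f6 the balance was 0.48 ± 0.30, -0.13 ± 0.66 and 0.78 ± 0.89 in the same order, and -3.59 ± 0.25 in gland. Activators minus atypical E2Fs gave 0.38 ± 0.39 in B1/P/Rbf, 1.03 ± 0.42 in B1/P and 0.05 ± 0.62 in P/Rbf tumors. Here 4 of 5 B1/P tumors were above all 10 T121 tumors, and the fifth, 248662, had 0.30.

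Per kilobase of the longest principal transcript, Tfdp1 was the most abundant member in every tumor group, at 69.0 ± 12.6 to 83.5 ± 13.6 CPM per kb (SD, n = 5). E2f4 came second, at 22.7 ± 4.26 to 28.5 ± 6.73 CPM per kb, followed by E2f1, at 17.0 ± 2.34 to 26.9 ± 3.56. E2f4 and E2f1 were within 1 SD of each other in B1/P/Rbf and P/Rbf tumors. E2f7 was lowest in both groups with floxed Brca1, at 3.07 ± 0.991 and 5.61 ± 0.976 CPM per kb, the latter next to E2f5 at 5.77 ± 0.651. In P/Rbf tumors the lowest were E2f3, E2f7 and E2f5, at 8.61 ± 3.63, 9.49 ± 4.77 and 9.57 ± 2.73, which did not differ beyond their spread. In gland the order began with E2f6 (25.9 ± 6.77), Tfdp1 (22.8 ± 1.79) and E2f4 (22.4 ± 1.78), which overlapped, and ended with E2f8 and E2f7 at 0.769 ± 0.0399 and 0.387 ± 0.0578 (SD, n = 3).

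P/Rbf tumors were unlike each other. Relative to the mean of the 15 tumors, tumors 287845 and 287822 were high in E2f1 (log2 deviations of 0.55 and 0.63), E2f2 (1.3 and 1.33), E2f7 (1.40 and 1.55) and E2f8 (1.09 and 1.6). The same tumors were low in E2f3 (-0.65 and -1.19) and E2f4 (-0.52 and -0.85). Tumor 287842 had the reverse pattern for E2f1 (-0.79), E2f2 (-0.95) and E2f3 (0.43). Without 287845 and 287822, an alternative added after these values were seen, E2f7 was the only member called in P/Rbf against B1/P tumors (1.01, adjusted p = 0.0238, edgeR) and over all T121 tumors (0.94, adjusted p = 0.00909).

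**Figure D3:**
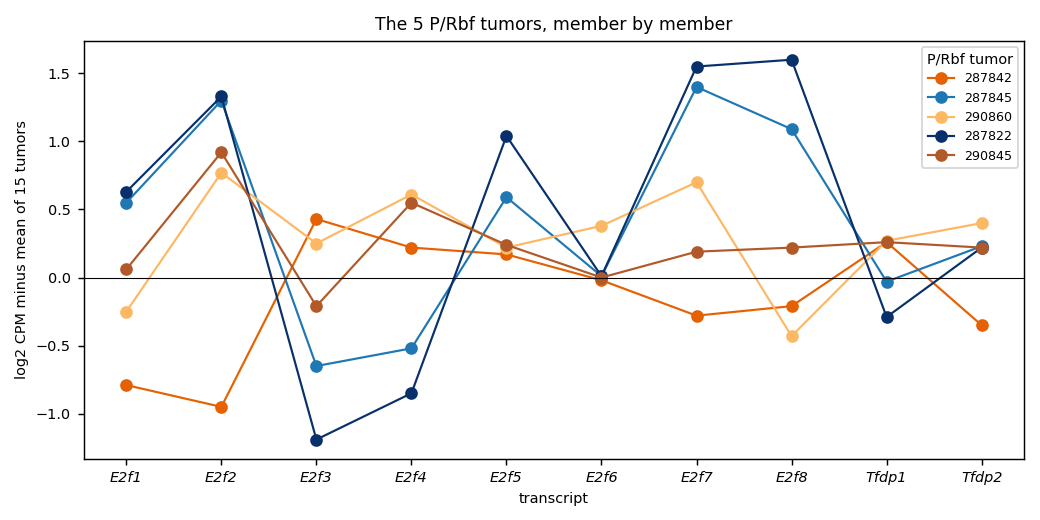
The vertical axis is log2 CPM minus the mean over all 15 tumors and the horizontal axis lists the 10 members, with 1 line for each P/Rbf tumor. Tumors 287845 and 287822 run together, high at E2f2, E2f7 and E2f8 and low at E2f3 and E2f4, and 287842 is lowest at E2f1 and E2f2.

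Likeness between genes was taken as the mean absolute difference of z-scored log2 CPM over the 15 tumors. The closest members were E2f2 and E2f7 (0.45), E2f7 and E2f8 (0.52) and E2f1 and E2f8 (0.56), and the farthest were E2f3 and E2f8 (1.44). Genes that are no members were compared where they averaged 5 CPM or more over the tumors. E2f8 was nearest to Kif22 and Dlgap5 (0.32 each), both of the mitotic spindle. E2f2 was nearest to Sgo1 (0.35), which protects centromeric cohesion, and Stmn1 (0.36), a regulator of microtubules on chromosome 4, where E2f2 also lies. With all 18 samples its nearest genes were Pdik1l and Tgfbr1, both on chromosome 4 too. Kif22 shares chromosome 7 with E2f8. E2f7 was nearest to Sec14l2 and Nde1 (0.28 each), E2f1 to Chrdl2 (0.32) and Zranb3 (0.33), E2f3 to Mex3a (0.32) and Kat2a (0.34), E2f5 to Chchd10 (0.34) and Morf4l2 (0.37), E2f6 to Vars and Cnot10 (0.43 each), Tfdp1 to Higd1a (0.38) and Caap1 (0.39), and Tfdp2 to Med25 (0.36) and Zc3h14 (0.37). With all 18 samples E2f3 and E2f8 kept both of their nearest genes, and the other members did not. By Euclidean distance over the 15 tumors, E2f1, E2f3 and E2f4 kept theirs, while E2f8 was nearest to Ect2 and Prc1 and E2f7 to Nabp1 and Parpbp.

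E2f4 was nearest to Setd6 (0.28) and Klhdc4 (0.30), and all of these lie on chromosome 8: E2f4 at 105297663 to 105305370, Setd6 at 95715881 to 95719010 and Klhdc4 at 121796313 to 121829569 (GRCm38, GENCODE M21). The 115 other tested genes within 5 Mb of E2f4 varied with it from tumor to tumor. Their median deviation from the mean of the 15 tumors ran from -0.61 in P/Rbf tumor 287845 to 0.46 in P/Rbf tumor 290845, and had the sign of the E2f4 deviation in 14 of 15 tumors. E2f4 differed from its neighbours' median by 0.15 on average and from its own mean by 0.38. The same measure was 0.72 for E2f7, whose own mean deviation was 0.60, and 0.39 for E2f1, with 0.38. Tfdp2 had its neighbours' sign in 12 of 15 tumors (0.30 against 0.48) and E2f2 in 11 (0.54 against 0.70). E2f3 and E2f6 each had it in 10 (0.38 against 0.43 and 0.26 against 0.32), so E2f4 was not alone in this. Points in 1 tumor share a library and its scaling, and DNA copy number was not measured in these data.

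**Figure D4:**
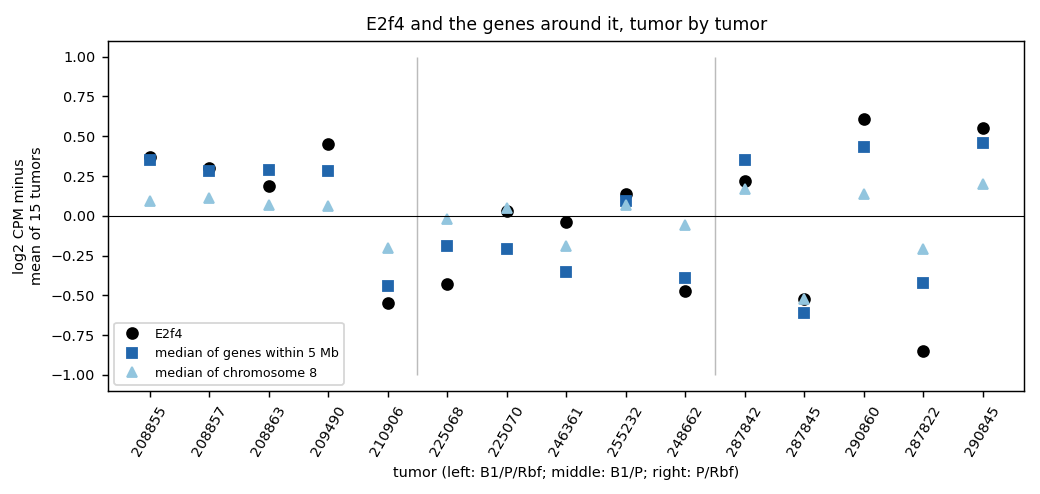
Log2 CPM minus the mean of 15 tumors is plotted on the vertical axis for each tumor on the horizontal axis, as circles for E2f4, squares for the median of 115 genes within 5 Mb and triangles for the median of chromosome 8. Circles and squares share a sign in every tumor but B1/P 225070, from -0.61 to 0.46 for the squares.

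The pocket proteins and E2F targets were described with the members. Rbl1, which encodes p107 and is an E2F target, was at 104 ± 37.1 CPM in T121 tumors (SD, n = 10) and 46.7 ± 17.5 CPM in B1/P tumors (SD, n = 5), and rose by 1.15 ± 0.27 (adjusted p = 0.00585, edgeR). Rbl2, which encodes p130, the partner of E2F4 in resting cells, fell by 1.2 (SE 0.21, adjusted p = 0.000809), from 70.6 ± 33.3 to 30.7 ± 4.74 CPM. Gland had 94.3 ± 12.3 CPM of Rbl2 (SD, n = 3). Against gland Rbl2 differed by -1.56 in B1/P/Rbf and -1.68 in P/Rbf tumors, both called, and by -0.42 in B1/P tumors, not called. Rb1 was at 32.7 ± 15.0 CPM in T121 tumors and 23.3 ± 2.72 CPM in B1/P tumors (0.47 ± 0.27, adjusted p = 0.214, edgeR). Against gland, at 70.9 ± 4.32 CPM (SD, n = 3), Rb1 fell by 1.6 in B1/P, 1.33 in B1/P/Rbf and 0.93 in P/Rbf tumors (SE 0.35 each, adjusted p = 0.00196, 0.00636 and 0.0437, edgeR). The 2 pocket protein genes called lower in P/Rbf tumors than in gland became 1 with library size alone, no filter, only the groups compared or within the higher set, and the 2 in B1/P/Rbf became 0 with the set term. In P/Rbf against B1/P tumors the 1 called higher became 0 with the set term, within the higher set or without P/Rbf tumors 287845 and 287822. Of all genes, 618 of 19186, 747 of 19008 and 1499 of 19067 were called higher in these fits, in that order. Within the lower set 0 of 3 were called in B1/P/Rbf tumors, where 681 of 17383 genes were called higher and 662 lower.

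Of 30 S phase genes listed as E2F targets, in B1/P/Rbf against B1/P tumors 17 passed the test as higher and 0 as lower, with a median log2 difference of 1.03 beside -0.06 over all genes, of which 7.36% were called higher. In P/Rbf against B1/P tumors 20 were called higher and 0 lower, against 8.43% of all genes, and over all T121 tumors 22 were, against 9.31%, with medians of 0.94 and 1.08. The P/Rbf count became 13 with only the groups compared, 6 with the set term and 15 without P/Rbf tumors 287845 and 287822. In these fits, in that order, 632 of 16196, 618 of 19186 and 1499 of 19067 genes were called higher. Mcm4 and Mcm6, subunits of the replicative helicase, rose by 1.25 ± 0.13 and 1.14 ± 0.15, Tyms, which makes thymidylate, by 1.23 ± 0.17 and Slbp, the histone mRNA binding protein, by 1.17 ± 0.20 over all T121 tumors (adjusted p at most 0.000562, edgeR). Against only the 2 B1/P tumors of the higher set, 5 of 30 were called in P/Rbf tumors, where 3.93% of all genes were called higher. Against only the 3 of the lower set, 20 of 30 were called in B1/P/Rbf tumors, where 3.92% of all genes were. Between the T121 groups edgeR called 0 of the 30 (against 0.281% of all genes) and DESeq2 called 1 (against 5.33%).

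Tumor by tumor, the sum of the 30 targets was 4000, 4580, 4430, 4760 and 5100 CPM in B1/P/Rbf. For P/Rbf tumors it was 2950, 4710, 3780, 4990 and 4160 CPM. It was 1960, 1900, 2230, 3600 and 2080 CPM in B1/P tumors and 551 to 590 CPM in gland. In P/Rbf tumors the lowest sum was that of 287842 and the highest was that of 287822, the tumors with the least and the most E2f1. Tumor 287842 nevertheless exceeded 4 of 5 B1/P tumors, with 34.3 CPM of E2f1 against 38.3 to 54.7 CPM in B1/P. B1/P tumor 255232, at 3600 CPM, had the most E2f1, E2f2, E2f3 and E2f8 of its group.

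Among 11 G2/M genes 7 were called higher and 0 lower in T121 tumors, where 9.31% of all genes were called higher, including Ccnb2 (1.22 ± 0.22), Top2a (1.15 ± 0.26), Ccnb1 (0.97 ± 0.23) and Cdc20 (0.92 ± 0.24), which drive or carry out mitosis. In B1/P/Rbf against B1/P tumors 3 of 11 were called higher by edgeR, against 7.36% of all genes, and 2 within the lower set, against 3.92%. For P/Rbf tumors the count was 6, against 8.43% of all genes. It became 1 with the set term, 2 within the higher set and 4 with only the groups compared or without 287845 and 287822. In these fits, in that order, 618 of 19186, 747 of 19008, 632 of 16196 and 1499 of 19067 genes were called higher. Their sum was highest in 287822 and 287845, at 4220 and 3120 CPM, against 939 to 1580 CPM in B1/P tumors. Of 6 E2F1 targets of cell death 1 was called higher and 1 lower, against 9.31% and 13.9% of all genes. Pmaip1, which encodes NOXA, rose by 1.66 ± 0.55 (adjusted p = 0.0372, edgeR) and Trp73, which encodes p73, fell by 5.45 (SE 0.94, adjusted p = 0.000673). With limma-voom neither was called, and Pmaip1 was not called with only the groups compared or with the set term. Trp73 was at 0.0575 to 3.44 CPM in T121 tumors and at 0.0592 to 92.1 CPM in B1/P tumors. Apaf1, which encodes the core of the apoptosome, was not called, at 0.61 ± 0.22 (adjusted p = 0.0526, edgeR).

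**Figure D5:**
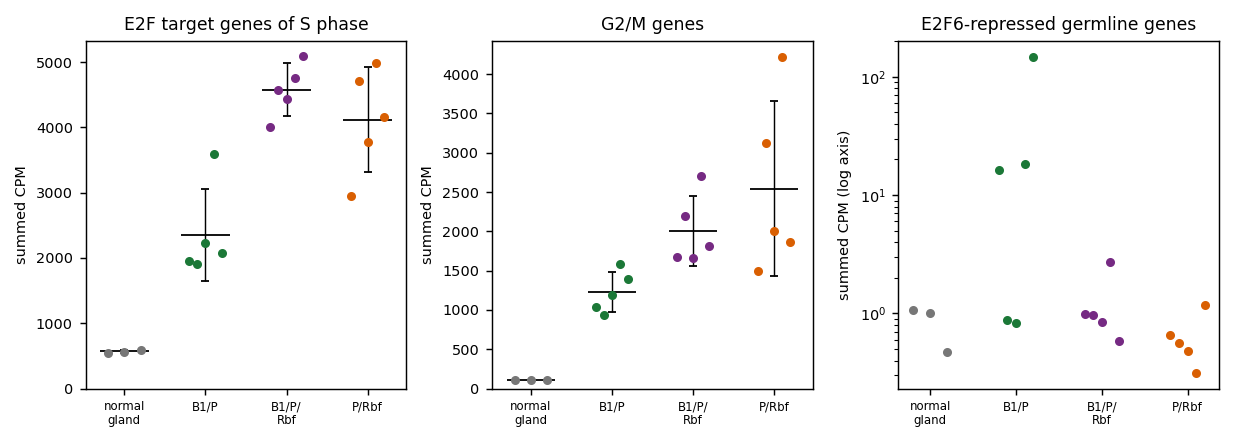
Panels plot summed CPM per library for the 30 S phase targets, the 11 G2/M genes (linear axes from 0, lines for means and bars for SDs) and the 5 germline genes linked to E2F6 (log axis). All 10 T121 tumors exceed 4 of the 5 B1/P tumors for S phase targets, and 3 B1/P tumors stand above 10 CPM in the germline panel, where every other library is at or below 2.71 CPM.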

How the data were processed

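Total RNA from 15 mammary tumors and 3 normal glands was made into stranded mRNA libraries and sequenced in pairs of reads. The authors trimmed reads with cutadapt 1.18 and quantified them with RSEM 1.3.0. The authors deposited expected counts per gene from RSEM, neither normalized nor filtered, and 5.61% are not whole. The methods name a human reference, whereas the gene identifiers are those of GENCODE M21 on the mouse build GRCm38. The aligner and the strand setting of the counting are not given in the sources used here.

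Expected counts were rounded and analysed with edgeR 4.0.16 in R 4.3.3. Genes were kept by filterByExpr with a minimum count of 10, scaled by TMM, and fitted over all 18 samples with the genotype group as the only term (glmQLFit, glmQLFTest). TMM factors were 0.952 to 1.11 in tumors and 0.788 to 0.858 in glands. T121 tumors as a whole are the mean of the B1/P/Rbf and P/Rbf coefficients. p-values were adjusted by Benjamini-Hochberg over all genes. Single members were also compared by exact two-sided permutation tests of mean log2 CPM (prior count 2), whose smallest p is 0.00794 for 5 against 5, 0.000333 for 10 against 5 and 0.0179 for 5 against 3. Alternatives used DESeq2 1.42.0, limma 3.58.1 (voom with quantile normalization), other filters and scaling, a term for 2 sets of mouse numbers, and left-out samples.

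The members and gene lists were chosen with earlier results of these data known. Named genes were all members, in each list the 4 or fewer genes with the smallest p in T121 against B1/P tumors (others were named for context, after their values were seen), and for each member the 2 most alike genes. Of the genes that this rule names, 1 is not reported here. Gene positions, lengths and overlaps are from GENCODE M21, and promoter windows from RefSeq. Libraries came from separate mice, so p-values measure the spread between animals.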

Additional observations from a re-analysis of the deposited data

Results flagged for a closer look

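Among 30 sets of 5 tumors (10 members in 3 groups), 2 held a tumor far from the others by Dixon's test, and chance flags about 1 in 20. E2f3 in B1/P/Rbf tumor 209490 was at 71.2 CPM, with the next tumor at 49.8 CPM. E2f6 in P/Rbf tumor 290860 was at 39.0 CPM, with the next at 30.2 CPM and the other 4 within 29.4 to 30.2 CPM. Leaving out these tumors changed no call of E2f3 or E2f6 between tumor groups, and E2f3 in B1/P/Rbf tumors against gland was not called without 209490 (0.93, adjusted p = 0.0685, edgeR).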

How the results depend on the processing

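No paired analysis was made, because every library came from a separate mouse and the labels link no mice between groups. Members called in B1/P/Rbf against B1/P tumors numbered 0, but 3 with DESeq2, 1 with limma-voom, 2 with only the groups compared, 2 with a term for the sets of mouse numbers and 3 within the lower set. Of all genes, edgeR over all 18 samples called 16.7%, DESeq2 23.0% and limma-voom 16.0%. With only the groups compared 970 of 16542 genes were called higher and 1069 lower. The set term gave 1060 and 1328 of 19186, and the lower set 681 and 662 of 17383. For P/Rbf against B1/P tumors 4 became 2 with limma-voom, 2 with library size alone, 3 with no filter, 1 with only the groups compared, and 0 with the set term, within the higher set or with the filter of the study (log2 CPM of 6 or more in 6 samples or more, which tests few members and not E2f7). Of all genes, 1618 of 19186 were called higher and 2066 lower by edgeR over all 18 samples, and 1581 and 1578 of 19181 with limma-voom. Library size alone gave 1341 and 2267 of 19186, no filter 1380 and 1889 of 32772, and only the groups compared 632 and 875 of 16196. The set term gave 618 and 1390 of 19186, the higher set 747 and 1486 of 19008, and the filter of the study 434 and 432 of 4551. For T121 tumors against B1/P 2 became 4 with DESeq2, 3 with limma-voom, 3 with the set term (Tfdp2 added in each), 1 with library size alone or only the groups compared and 0 with that filter. Of all genes, 1787 of 19186 were called higher and 2658 lower by edgeR over all 18 samples. DESeq2 called 2484 and 3026 of 19186, limma-voom 1964 and 2167 of 19181, and the set term 2018 and 2437 of 19186. Library size alone gave 1644 and 2789 of 19186, only the groups compared 1451 and 1713 of 17223, and that filter 538 and 608 of 4551. Between the T121 groups DESeq2 called 1, against 5.33% of all genes. Against gland that filter, which tests few members, called 2 of them in each tumor group. Among its 4551 genes, the calls up and down against gland were 901 and 859 for B1/P/Rbf. They were 823 and 777 for B1/P, and 822 and 847 for P/Rbf. Without 287845 and 287822, P/Rbf and T121 tumors had 1 call each, where 1499 and 1957 of 19067 genes were called higher and 2069 and 3056 lower. The within-set fits and the last one were added after seeing the data, and the causes of these changes were not tested.

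Leaving out 1 sample at a time gave 0 to 1 calls in B1/P/Rbf, 1 to 5 in P/Rbf and 1 to 5 in all T121 against B1/P tumors, 0 between the T121 groups, and against gland 4 to 8 in B1/P/Rbf, 6 in B1/P, and 5 to 7 for P/Rbf tumors. The share of all genes called in each of these fits is not given here. These ranges therefore cannot be read as particular to the members. Calls gained without 1 sample, beyond those given with each member, were E2f6 in B1/P/Rbf tumors without 246361 (0.8, adjusted p = 0.0207, edgeR), Tfdp2 without 255232 in B1/P/Rbf (1.11, 0.00987) and P/Rbf tumors (0.86, 0.0308), E2f2 in T121 tumors without 287842 (0.93, 0.0175), E2f7 in B1/P/Rbf tumors without 248662 (1.05, 0.0408), and E2f1 in P/Rbf tumors without 287842 (0.68, 0.0306) and in T121 tumors without 287842 (0.69, 0.00982) or 290860 (0.61, 0.0449).

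No called difference changed sign. Uncalled ones did. E2f5 in B1/P/Rbf against B1/P became 0.05 with limma-voom and 0 with only the groups compared (left-out samples -0.13 to 0). Tfdp1 between the T121 groups became 0.1 with limma-voom, 0.08 with library size, 0.09 with the filter and 0.15 with the set term (-0.1 to 0.03). Tfdp2 in B1/P against gland became -0.02 with limma-voom and -0.14 with the filter (-0.17 to 0.33). With the set term E2f2, E2f6 and E2f8 between the T121 groups became 0.02, -0.38 and 0.77, and E2f5 against gland -0.16 in B1/P/Rbf (-0.03 to 0.11) and -0.05 in B1/P tumors, also -0.05 within the higher set. Without 287845 and 287822, E2f3, E2f4 and E2f8 between the T121 groups became -0.12, -0.28 and 0.4 (E2f4 -0.09 to 0.24). E2f4 in B1/P against gland ran from -0.06 to 0.12. Library size alone moved the median of all genes against gland to 0.42, 0.47 and 0.33, from 0.05, 0.12 and 0.05.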
